A study of Homo sapiens with 9 samples.

Results

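Chromatin immunoprecipitation with sequencing of the transcription factor ZEB1 was compared between the unmodified pancreatic cancer line MiaPaCa2, called parental here, and a pair of single-cell clones grown from it. The comparison used every ZEB1 peak of the 3 deposited peak lists, with 4804 peaks for parental, 1515 for WT clone and 2160 for delta-Repeat clone cells, which is 8479 of the 47426 peaks in the 5 lists of the series. Peaks were taken as the same place when they overlapped by at least 1 bp. Each parental peak was then placed by whether both clones, 1 clone or neither held it, and each clone peak by whether the parental list held it.

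The parental cells came from the original pancreatic ductal adenocarcinoma line and had no treatment. The WT clone was isolated by dilution after electroporation with pX330A_D10A-1x2 plasmids that carry a Cas9 nickase. The delta-Repeat clone was isolated in the same way from cells that had received a pair of these plasmids with guide RNAs aimed at repeats upstream of the MIR200A/B locus. Both clones share the MiaPaCa2 origin, the plasmid type, the passage through a single cell and 1 antibody lot (K1615), while the parental cells were precipitated with another lot (H1513) of the same antibody. Each condition had 1 sample, so there is no spread between replicates and no test, and a list stands for 1 culture. Clonal origin, plasmid exposure and antibody lot all separate the clones from the parental cells and cannot be told apart. The ZEB1 list of RKO, a colon carcinoma line precipitated with a further lot (G2315), and the CTCF list of parental cells served as outside readouts, and the 4 input samples were not analysed here. The lists give no read depth. Callers find low peaks more readily with more reads, so a peak that a list lacks may still be bound.

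ZEB1 is a zinc-finger protein that binds E-box-like DNA sites and recruits co-repressors such as CtBP to epithelial genes. It is a driver of the epithelial-to-mesenchymal transition. The microRNAs of the miR-200 family act on its messenger RNA, and ZEB1 in turn represses their genes. In carcinoma lines of mesenchymal character, such as MiaPaCa2, it is known for keeping epithelial genes silent. A peak height is given here as the fold enrichment at the summit that the authors' peak caller wrote. It was used only to rank peaks within their own list.

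A minority of parental ZEB1 peaks recurred in both clones, and more than that were in neither. Both clones held 1075 of 4804 parental peaks (22.4%, exact Clopper-Pearson 95% interval 21.2 to 23.6), and neither clone held 2644 (55.0%, 53.6 to 56.5). A further 333 (6.93%, 6.23 to 7.69) were in the WT clone alone and 752 (15.7%, 14.6 to 16.7) in the delta-Repeat clone alone. Taken clone by clone, 1408 parental peaks (29.3%) recurred in WT and 1827 (38.0%) in delta-Repeat cells. All intervals here cover counting error only, and neighbouring peaks are not independent. The shares depended on list length and on the overlap rule. With all 3 lists shortened to 1515 peaks, 56.0% of parental peaks were in both clones and 16.7% in neither, and with summits required to lie within 100 bp the shares over the full lists were 13.6% and 66.0%.

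Parental rank separated the classes. The median fold enrichment was 12.5 for parental peaks in both clones (quartiles 9.33 and 17.7) and 5.76 for those in neither (highest 18.6). Peaks in the WT clone alone, with a median of 7.36, and in the delta-Repeat clone alone, with 7.04, lay between them. The parental list was divided into 10 deciles by fold, with decile 1 the weakest. In decile 10, with folds from 13.9 upward, 458 of 481 peaks were in both clones (95.2%, 92.9 to 96.9) and 6 in neither. In decile 9 the share in both was 59.4% (54.8 to 63.8), in decile 8 it was 32.4% (28.3 to 36.8) and in decile 7 it was 12.3% (9.49 to 15.6). It lay at 9.58% or less in each of the 6 deciles below. The share in neither clone went the other way, from 1.25% (0.459 to 2.70) in decile 10 to 84.8% (81.3 to 87.9) in decile 1. The drop was therefore concentrated between folds of about 14 and 7, and below it parental peaks in both clones were rare.

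**Figure D1:**
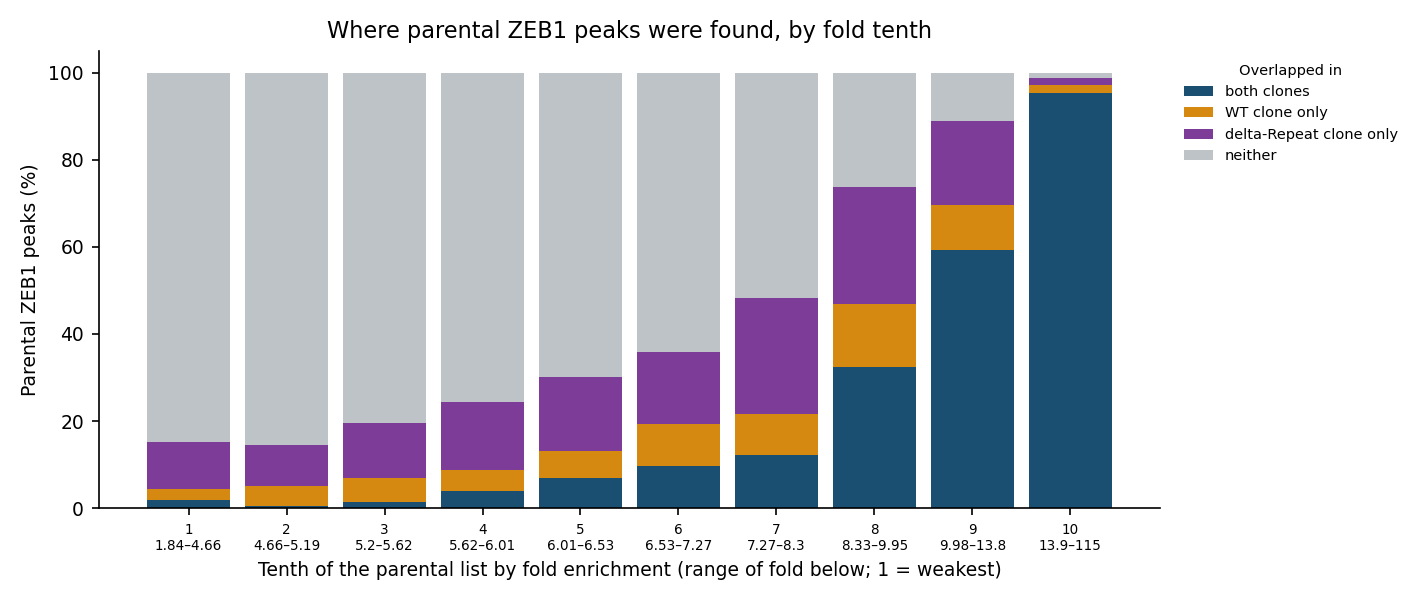
Parental ZEB1 peaks by decile of fold enrichment (x axis, weakest to strongest, with the range of fold under each bar) against the percentage found in both clones, in the WT clone alone, in the delta-Repeat clone alone or in neither (stacked bars, y axis). The part found in both clones grows from 1.88% of decile 1 to 95.2% of decile 10, and the part found in neither shrinks from 84.8% to 1.25%.

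The parental list stayed nearly complete in the clones down to about rank 250. Of the 250 strongest parental peaks 247 were in both clones and none was in neither, and of the 500 strongest 471 were in both and 6 in neither. Of the 1000 strongest, 762 were in both clones and 64 in neither. The first parental peak missing from the WT clone had rank 228. This peak of fold 19.3 (chromosome 20, 61935940 to 61936408) was held by the delta-Repeat clone (fold 7.25, rank 1034), and had a WT clone peak 0.658 kb away. The first missing from the delta-Repeat clone was the peak of rank 2 on chromosome 1 from 1058354 to 1060112 (fold 105), which was the fifth strongest of the WT clone and the strongest of RKO. The guide RNAs of the delta-Repeat clone were aimed at repeats upstream of the MIR200A/B locus. Whether this peak lies in the targeted stretch, and so whether DNA or binding was lost there, was not tested. The next missing from the delta-Repeat clone had rank 195 (chromosome 7, 5601644 to 5603309, fold 21.0).

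Wide parental peaks were found in both clones more often than narrow ones. The median width was 688 bp for parental peaks in both clones (quartiles 525.5 and 880), 447 bp in the WT clone alone, 430.5 bp in the delta-Repeat clone alone and 286 bp in neither (229 and 394). In the widest decile, from 803 to 2788 bp, 372 of 481 peaks were in both clones (77.3%, 73.3 to 81.0). In the narrowest decile, from 200 to 211 bp, 2 of 480 were (0.417%). The difference of 76.9 points (72.8 to 80.5) was 37.6 points with an overlap of 50% of both peaks and 42.4 points with summits within 100 bp. Wide peaks were also strong, with a median fold of 14.2 in the widest and 5.14 in the narrowest decile. Width and fold were therefore set against each other in a grid of quintiles. In the strongest fold quintile, 530 of 615 peaks of the widest quintile were in both clones (86.2%, 83.2 to 88.8), against 36 of 79 in the middle width quintile (45.6%, 34.3 to 57.2). Among the widest peaks, those of the weakest fold quintile were in both clones in 2 of 19 cases, so both features moved with recurrence in the grid.

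**Figure D2:**
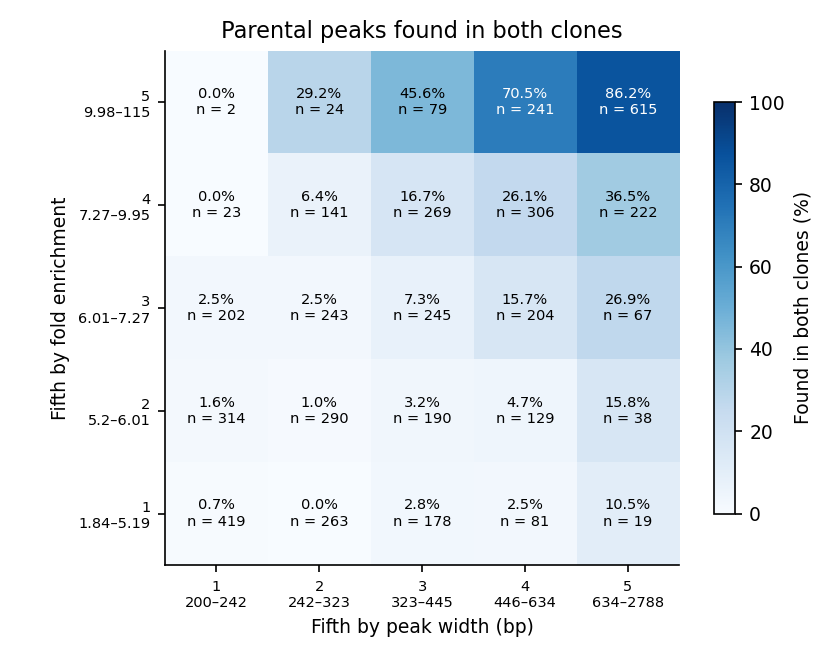
Grid of parental ZEB1 peaks by quintile of width in bp (x axis) and quintile of fold enrichment (y axis), where each cell gives the percentage found in both clones and the number of peaks, and darker blue is a higher percentage. The strongest and widest cell holds 615 peaks with 86.2% in both clones, and the percentage is lower both down its column and leftward along its row.

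At equal fold the part played by width depended on what counted as the same place. Within each fold decile, the peaks wider than the median of that decile were in both clones more often than the narrower ones, by a mean of 8.31 percentage points (6.70 to 9.92). In decile 9, for example, 166 of 240 wider peaks (69.2%) and 119 of 240 narrower peaks (49.6%) were in both. A wider peak has more bases that can overlap. With summits within 100 bp the mean difference was 1.46 points (-0.115 to 3.04), and with an overlap of 50% of both peaks it was -2.16 points (-3.66 to -0.653), turned to the narrower peaks. The rank gradient was kept under these rules, with differences between deciles 10 and 1 of 64.0 and 68.8 points against 93.3 with 1 bp.

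The recurrence of parental peaks was spread over all chromosomes. The share found in both clones ran from 16.9% on chromosome 3 (41 of 242) to 32.9% on chromosome 16 (57 of 173). Because chromosomes differ in the strength of their peaks, observed numbers were set against those expected from the fold deciles of each chromosome's peaks. Chromosome 21 had the lowest ratio, with 10 peaks in both clones where 16.5 were expected (0.606, exact Poisson 95% interval 0.291 to 1.12). Chromosome X had the highest, with 18 against 13.5 expected (1.34, 0.792 to 2.11), and chromosome 5 had 66 against 51.3 (1.29, 0.996 to 1.64). None of the 23 Poisson intervals excluded 1. These intervals ignore that a count cannot exceed the peak number of its chromosome, so they are wide where shares are large. The exact Clopper-Pearson interval of the chromosome 5 share (25.1%, 20.0 to 30.8) lay above the expected 51.3 of 263. For peaks in neither clone the Poisson interval excluded 1 on 1 of 23 chromosomes, chromosome 2, with 177 observed and 209 expected (0.847, 0.727 to 0.981). Chromosome 1, which had the most parental peaks (532), had 333 in neither clone where 301 were expected (1.11, 0.991 to 1.23). The Clopper-Pearson interval of the chromosome 1 share (62.6%, 58.3 to 66.7) lay above the expected 301 of 532. With peaks ranked by −log10 q in place of fold, its ratio was 1.13 (1.008 to 1.253), an interval that excludes 1. With summits within 100 bp, the lowest ratio for both clones was instead that of chromosome 9, at 0.622 (0.362 to 0.996).

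**Figure D3:**
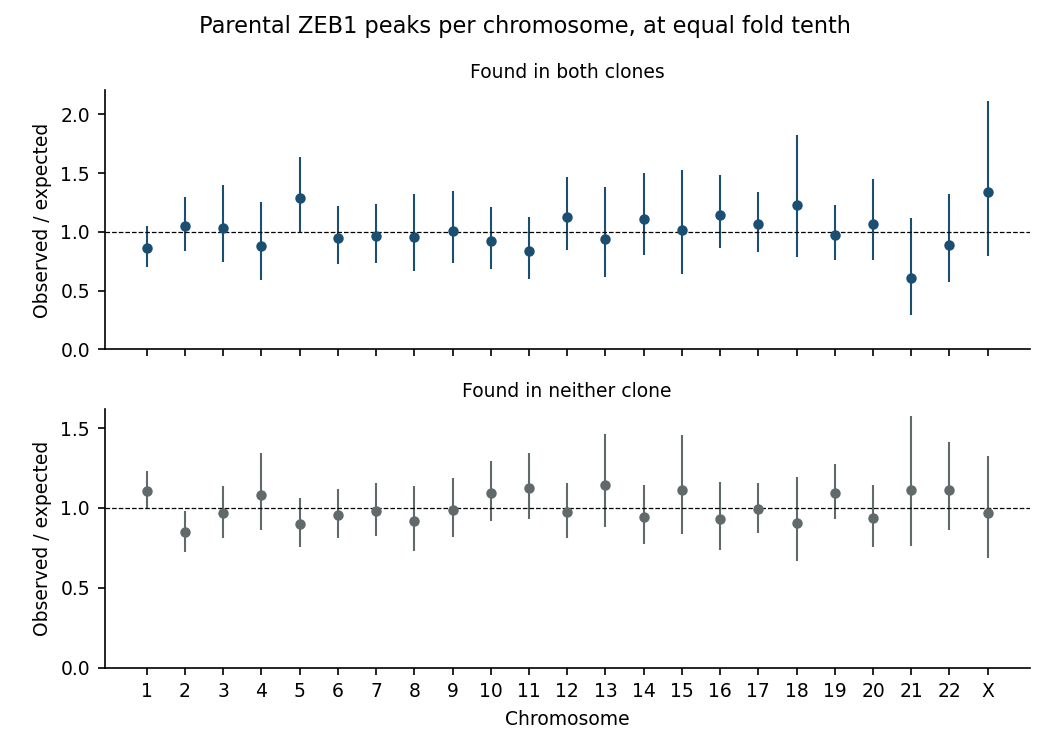
Observed over expected number of parental ZEB1 peaks on each chromosome (x axis) found in both clones (upper panel) and in neither clone (lower panel), where the expected number holds the fold decile and bars are exact Poisson 95% intervals. Points scatter around 1 (dashed line), and chromosome 2 in the lower panel, at 0.847, is the single one whose Poisson interval excludes it. Poisson intervals are wide for shares as large as those in the lower panel.

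Few strong parental peaks were missing from both clones. The 10 strongest of this kind had ranks from 254 to 582, and 8 of them overlapped a ZEB1 peak of RKO. Over all parental peaks in neither clone the RKO share was 44.3%, and in decile 9 it was 71.7% of such peaks. At the top of the 10 was a peak of fold 18.6 on chromosome 6 (3094299 to 3094745, −log10 q 42.2). Its neighbour at 3090537 to 3091142, of fold 14.5, was the sixth strongest. Both places were strong in RKO, where the peaks had folds of 28.0 (rank 81) and 20.4 (rank 180). The nearest clone peaks ended at 2245621 and began at 5003594. This stretch of 2758 kb lacks clone peaks by definition, and held 9 parental and 11 RKO ZEB1 peaks.

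The other strong parental peaks missing from both clones were of mixed kinds. On chromosome 1 (54021214 to 54021591, fold 15.8) and chromosome 22 (49922994 to 49923420, fold 14.9) both clones had a peak less than 1 kb away, at 0.690 and 0.929 kb on chromosome 1 and at 0.642 and 0.770 kb on chromosome 22 for the WT and delta-Repeat clone. These 2 are absent by the overlap rule and not by neighbourhood. The peak on chromosome 18 from 25736672 to 25736972 (fold 15.1, rank 391) was isolated, with no RKO peak within 1929 kb and no clone peak within 1499 kb. The peak on chromosome 9 from 140913918 to 140914237 (fold 16.5, rank 326) was absent from RKO as well, although an RKO peak lay 1.52 kb away. The remaining 4 were each in RKO. Their parental folds were 13.4 on chromosome 4 (1290051 to 1290399), 13.0 on chromosome 21 (47363530 to 47363867), 12.9 on chromosome 1 (2344453 to 2345553) and 12.5 on chromosome 12 (132643269 to 132643905). None of the 10 overlapped a CTCF peak of parental cells. The CTCF share was itself low among parental peaks in neither clone, at 17.5% over all of them and 9.43% in decile 9.

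Over all 2644 parental peaks in neither clone, the median gap to the nearest clone peak was 125 kb (quartiles 27.3 and 424). A clone peak lay within 1 kb of 219 of them (8.28%) and within 10 kb of 452 (17.1%). Consecutive parental peaks in neither clone formed 1168 runs, of which 549 were single peaks and 5 had 11 or more. The longest run held 12 peaks over 21756 kb of chromosome 1 (62708624 to 84464864). The most compact of the 5 held 11 peaks within 134 kb of chromosome 1 (8137496 to 8271509), with folds from 3.87 to 7.18, and 1 of these 11 was in RKO. The other 3 runs of 11 peaks were those of chromosome 19 (4063056 to 5694566), chromosome 11 (67118529 to 68856338) and chromosome 9 (115248299 to 123836848). In these 3, between 6 and 7 of the peaks were in RKO, and the highest folds were 9.11, 8.60 and 8.75. All 5 runs consisted of peaks whose median fold was 6.24 or less, in the range where peaks in neither clone prevail over the whole list.

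At the other end, the 5 strongest parental peaks in both clones were those of ranks 1 and 3 to 6, since the peak of rank 2 was absent from the delta-Repeat clone. The peak of rank 1, on chromosome 16 from 90097285 to 90099860 (parental fold 115), was also first in each clone. The parental peak of rank 3 (chromosome 1, 89990490 to 89991343) had rank 6 in the WT clone and rank 4 in the delta-Repeat clone, and that of rank 4 (chromosome 5, 68787961 to 68789356) had ranks 8 and 2. The peaks of parental rank 5 (chromosome 13, 114319193 to 114321438) and rank 6 (chromosome 19, 11320459 to 11322795) were broad, at 2246 and 2337 bp. Their clone ranks were 37 and 41 for the first and 33 and 11 for the second, WT clone given first. All 5 also overlapped an RKO peak, and 1 of them, that of rank 3, a CTCF peak.

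Of the peaks that were in the strongest decile of both clones, all but 1 of the 119 matching parental peaks were in the strongest parental decile. The exception, in decile 9, lay on chromosome 20 from 49347231 to 49348015, with a parental fold of 11.3 at rank 713. Its clone peaks had ranks 149 and 158. Other low parental ranks in this set were 330 (chromosome 11, 118122505 to 118123324), 295 (chromosome 9, 37904006 to 37904677), 266 (chromosome X, 19906072 to 19906890) and 251 (chromosome 19, 42746838 to 42747611). The last of these was rank 36 in the delta-Repeat clone. No parental peak below decile 9 matched a strongest-decile peak in both clones.

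In the 2 weakest parental deciles, 12 of 960 peaks were in both clones, and these were named after their values were seen. The highest clone ranks among them belonged to a peak on chromosome 19 from 6714064 to 6714402 (parental fold 4.61, rank 4367), with a WT clone fold of 10.4 (rank 364) and a delta-Repeat clone fold of 9.0 (rank 620). The peak on chromosome 1 from 121484595 to 121485417 was of another kind. It was the last in rank in the parental list (fold 1.84), in the delta-Repeat clone (fold 1.87) and in RKO (fold 1.62), and next to last in the WT clone (fold 1.78), and it overlapped a CTCF peak with a fold of 2.07. Its parental −log10 q was 10.5, above the list median of 8.49 despite the lowest fold. Whether such a low peak, found with the CTCF antibody too, reflects ZEB1 binding was not tested.

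Clone peaks that matched a parental peak were narrower and had close summits. The median distance between the summits of an overlapping pair was 57 bp with WT and 60 bp with delta-Repeat clone peaks, and 45.6% and 44.3% of pairs were within 50 bp. The clone peak was the narrower of the pair in 94.4% of WT clone and 87.3% of delta-Repeat clone pairs, with a median width ratio of 0.609 and 0.687. A parental peak met 2 or more separate peaks of a clone in 33 cases with WT and 59 with delta-Repeat clone peaks. A clone peak met 2 or more parental peaks in 3 and 18 cases. Over the 1075 parental peaks in both clones, the parental fold and the clone fold had a Spearman correlation across peaks of 0.738 (WT clone) and 0.711 (delta-Repeat clone). This is a description of peaks that share a cell line and a caller, not of replicates.

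RKO gave a readout that played no part in choosing the peaks. Of the parental peaks in both clones 914 of 1075 overlapped an RKO ZEB1 peak (85.0%, 82.7 to 87.1), and of those in neither 1170 of 2644 did (44.3%, 42.3 to 46.2). Peaks in 1 clone lay between, at 60.1% (54.6 to 65.4) when it was the WT clone, and 62.8% (59.2 to 66.2) when it was the delta-Repeat clone. RKO overlap was also higher among stronger peaks, for example 40.2% and 71.7% of the peaks in neither clone in deciles 4 and 9. At equal fold decile, the share in RKO was higher for peaks in both clones than for peaks in neither by a mean of 21.6 percentage points (15.6 to 27.5), and it was higher in 6 of the 6 deciles with at least 10 peaks on each side. These were deciles 4 to 9. Deciles 1 to 3 and decile 10, which held 458 of the 1075 peaks in both clones, did not enter. In decile 6, 31 of 46 peaks in both clones (67.4%, 52.0 to 80.5) and 141 of 308 in neither (45.8%, 40.1 to 51.5) were in RKO. Peaks in both clones are also wider at equal fold, and width was not held fixed here. With summits within 100 bp in place of overlap, the mean difference was 26.0 points (19.0 to 33.0). That rule also changes which peaks count as in both clones or in neither. With equal list lengths the mean difference was 13.7 points (5.64 to 21.8).

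**Figure D4:**
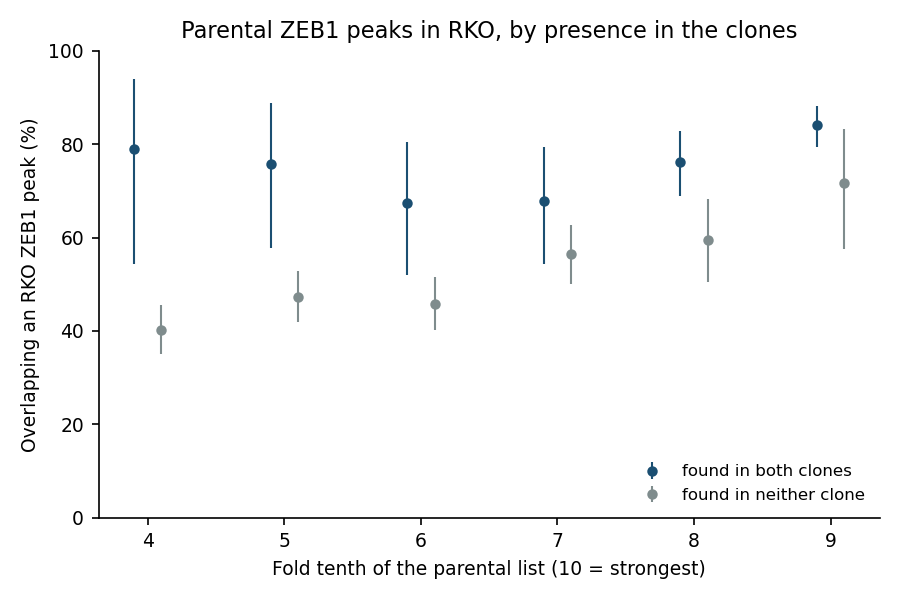
Percentage of parental ZEB1 peaks that overlap an RKO ZEB1 peak (y axis) by fold decile of the parental list (x axis), for peaks found in both clones (blue) and in neither (grey), with exact Clopper-Pearson 95% intervals. Deciles with fewer than 10 peaks on a side are not shown, and in each of the 6 shown the blue point lies above the grey one, with intervals that overlap in deciles 7 and 9.

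CTCF, the insulator protein, was profiled in parental cells. A CTCF peak overlapped 259 of the 1075 parental ZEB1 peaks in both clones (24.1%, 21.6 to 26.8) and 463 of the 2644 in neither (17.5%, 16.1 to 19.0). At equal fold decile the mean difference was 14.8 points (8.69 to 20.8) over deciles 4 to 9. The share was higher for peaks in both clones in 5 of 6 deciles, and the difference was -0.397 points in decile 8. Each decile weighed the same, so decile 4 (19 peaks in both clones, 32.5 points) counted as much as decile 9 (285 peaks, 11.6 points). Width was not held fixed here either. The mean difference was smaller under other rules, at 5.19 points (1.35 to 9.03) with summits within 100 bp. Under the stricter threshold it was 6.63 points and with equal list lengths 4.35 points, with intervals that include 0 (-0.238 to 13.5 and -2.93 to 11.6).

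Clone peaks absent from the full parental list, the longest of the 3, were few, weak and narrow. The WT clone had 73 among 1515 (4.82%, 3.80 to 6.02), and the delta-Repeat clone had 289 among 2160 (13.4%, 12 to 14.9). Within their own lists, the median fold of absent peaks was 5.90 (WT) and 5.66 (delta-Repeat), against 7.61 and 7.50 for peaks that the parental list held. Their median width was 229 and 237 bp, against 347 and 360 bp. Below the median rank of their list lay 59 of the 73 (80.8%) and 246 of the 289 (85.1%). The absent share was 31.9% (25.8 to 38.6) in the weakest fold decile of the delta-Repeat clone and 0.463% (0.0117 to 2.55) in the strongest. In the WT clone it was 12.6% (7.75 to 19.0) and 1.32% (0.160 to 4.67). The low absent shares depended on list length. With all 3 lists shortened to 1515 peaks, they were 27.7% (WT) and 29.2% (delta-Repeat). With summits within 100 bp over the full lists, the absent shares were 32.9% and 41.3%. Many of the clone peaks counted as present thus touched a parental peak with a more distant summit.

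**Figure D5:**
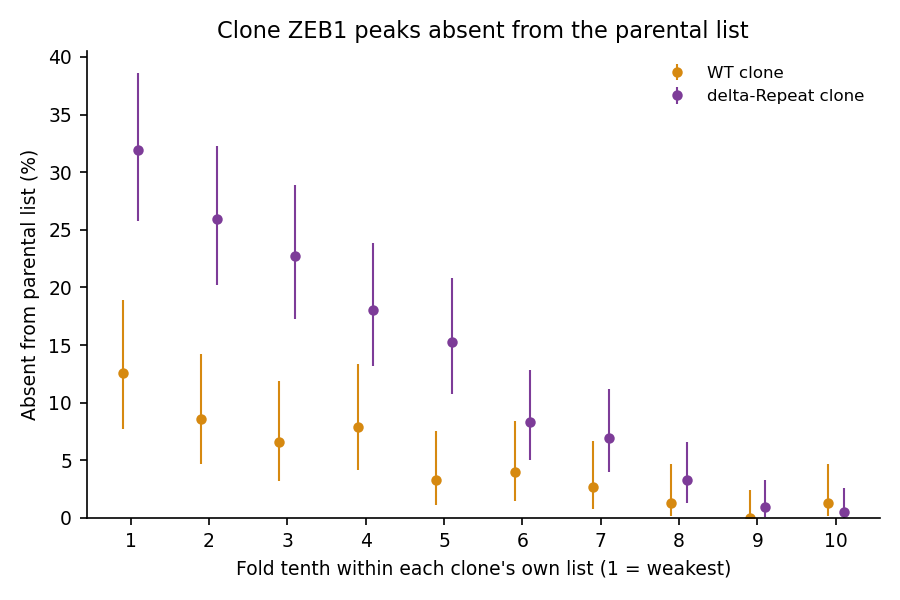
Percentage of clone ZEB1 peaks absent from the parental list (y axis) by fold decile within each clone's own list (x axis, weakest to strongest), for the WT clone (orange) and the delta-Repeat clone (purple), with exact Clopper-Pearson 95% intervals. The percentage falls from 12.6% and 31.9% in decile 1 to 1.32% and 0.463% in decile 10.

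Absent peaks occurred on every chromosome. In the WT clone there were between 1 and 11 on each, and at equal fold decile none of the 23 intervals of observed over expected excluded 1. Chromosome 10 had 9 absent of 101 WT clone peaks (8.91%), a ratio of 2.1 (0.961 to 3.99). In the delta-Repeat clone there were between 4 and 37, and 2 of 23 intervals excluded 1, both low. These were chromosome 19, with 5 of 116 (4.31%, ratio 0.338, 0.110 to 0.789), and chromosome 1, with 11 of 160 (6.88%, ratio 0.481, 0.240 to 0.861). The highest absent share in that clone was on chromosome 18, with 16 of 60 (26.7%, ratio 1.69, 0.969 to 2.75), and the highest number on chromosome 2, with 37 of 214. These ratio intervals are Poisson. The Clopper-Pearson interval of the chromosome 18 share (16.1 to 39.7) lay above the expected 9.44 of 60.

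The absent peaks stood apart from clone peaks that the parental list held in RKO overlap, and not detectably in CTCF overlap. In the WT clone 26 of 73 absent peaks were in RKO (35.6%, 24.7 to 47.7), against 1137 of 1442 peaks that the parental list held (78.8%, 76.6 to 80.9). In the delta-Repeat clone it was 113 of 289 (39.1%, 33.4 to 45.0) against 1422 of 1871 (76.0%, 74.0 to 77.9). Parental peaks that neither clone held also had a low RKO share, at 44.3% (42.3 to 46.2). At equal fold decile the share of absent minus that of present peaks was -33.9 points (-46.8 to -21.0) for WT and -26.3 points (-33.3 to -19.2) for delta-Repeat clone peaks. Here and for CTCF, only the 4 weakest deciles (WT) and the 7 weakest (delta-Repeat) had enough absent peaks to enter. Absent peaks were also narrower, and width was not held fixed. For CTCF the shares were 23.3% (14.2 to 34.6) of absent and 20.2% (18.2 to 22.4) of present WT clone peaks, and 22.8% (18.1 to 28.1) and 22.7% (20.8 to 24.7) in the delta-Repeat clone. The equal-fold differences in CTCF overlap had intervals of -9.75 to 11.8 and -5.93 to 6.57 points. The median gap from an absent peak to the nearest parental peak was 87.4 kb (WT) and 96.3 kb (delta-Repeat), and 8 and 45 of them lay within 1 kb of one.

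Both clones shared 15 regions that the parental list lacked by the 1 bp rule. The count was 129 with an overlap of 50% of both peaks, 125 with summits within 100 bp and 116 with equal list lengths. Absent peaks overlapped a peak of the other clone in 16 of 73 WT cases (21.9%) and 15 of 289 delta-Repeat cases (5.19%), against 76.0% and 58.4% of the peaks that the parental list held. Of the 15 regions, 6 overlapped an RKO peak and 5 a CTCF peak. Over all absent peaks the RKO shares were 35.6% (WT) and 39.1% (delta-Repeat), and the CTCF shares 23.3% and 22.8%. The median folds of the 15 regions were 5.77 (WT) and 5.85 (delta-Repeat), and 12 of the 15 had a WT clone fold below 9. The other 3 had WT clone folds of 10.4 or more.

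The region of best rank (chromosome X, 77359211 to 77359964) had a WT clone fold of 72.1 at rank 2 and a delta-Repeat clone fold of 39.4 at rank 9. The nearest parental peak was 78.8 kb away and the nearest RKO peak 78.7 kb, and no CTCF peak overlapped it. The second was on chromosome 15 from 68132245 to 68132754, with folds of 30.0 (rank 27) and 11.3 (rank 381), and it overlapped an RKO peak of fold 6.94 at rank 2565 of 7193. The third (chromosome X, 13284273 to 13284587) had folds of 10.4 (rank 363) and 8.77 (rank 649) and no peak in RKO or CTCF. The first 2 were the only absent peaks among the 100 strongest WT clone peaks, and the first was the only one among the 100 strongest of the delta-Repeat clone. Both clones came from cells exposed to plasmids, and the parental cells had no treatment. Whether plasmid DNA contributed reads at these regions was not tested. The clone lists hold 1515 (WT) and 2160 (delta-Repeat) peaks, so equal ranks do not stand for equal places.

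By mean rank, the next regions were on chromosome 14 (100070903 to 100071172, folds 8.76 and 6.92 with the WT clone first, in RKO) and chromosome 3 (10552082 to 10552334, folds 7.74 and 5.85). Those on chromosome 15 (29863415 to 29863742, folds 5.77 and 7.80), chromosome 19 (2271521 to 2271778, folds 5.94 and 6.44) and chromosome 4 (85503643 to 85503984, folds 5.77 and 6.42) overlapped no CTCF peak. The region on chromosome 4, unlike those on chromosomes 15 and 19, was in RKO, and it lay 0.077 kb from a parental peak, the smallest gap of the 15. Regions on chromosome 12 (120426449 to 120426785, folds 6.19 and 4.97) and chromosome 7 (5534482 to 5534756, folds 4.65 and 5.67) overlapped peaks of both RKO and CTCF. The last in rank of the 15, on chromosome 16 (33963095 to 33963520) and chromosome 21 (9827064 to 9827612), had folds below 3 in both clones but −log10 q values between 8.14 and 21.4. Each overlapped a CTCF peak and no RKO peak, and whether they reflect ZEB1 binding was not tested.

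Among absent peaks that the other clone lacked, those of the WT clone began with a peak of fold 10.0 at rank 397 (chromosome X, 71684334 to 71684695), 1179 kb from the nearest parental peak. The next, on chromosome 15 from 71055750 to 71056012 (fold 9.10), had a parental peak 0.379 kb and a delta-Repeat clone peak 0.484 kb away, and overlapped a strong RKO peak (fold 18.7, rank 215). Of the remaining 4 among the 10 strongest absent WT clone peaks, the one on chromosome 10 from 129948474 to 129948751 (fold 8.15) overlapped a strong CTCF peak (fold 40.9, rank 150 of 31754), and the one on chromosome 21 from 26979917 to 26980129 (fold 8.74) overlapped peaks of CTCF and RKO. Neither RKO nor CTCF had a peak at the other pair, of fold 8.66 on chromosome 4 (1722829 to 1723034) and fold 8.18 on chromosome 11 (70049027 to 70049266).

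In the delta-Repeat clone, the strongest absent peaks not shared with the WT clone lay on chromosome 3 (50265104 to 50265489, fold 11, rank 390) and chromosome 9 (139294420 to 139294678, fold 10.4, rank 438). Both overlapped an RKO and a CTCF peak. They were followed by peaks on chromosome 1 (89488238 to 89488589, fold 10.0) and chromosome 14 (58618407 to 58618815, fold 9.64), which were in RKO alone. Peaks on chromosome 17 (46343056 to 46343468, fold 9.18) and chromosome 20 (44859395 to 44859695, fold 9.11) were in no other list. The last, also on chromosome 20 (62273528 to 62273748, fold 8.93), was in RKO and had a parental peak 9.61 kb away. Of these 7, which were picked as the strongest, 5 were in RKO. Over all 289 absent peaks of this clone the share in RKO was 39.1%, and over the peaks that the parental list held it was 76.0%.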

How the data were processed

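ZEB1 peak lists of parental MiaPaCa2 cells and of both clones were compared by position, with the RKO ZEB1 and parental CTCF lists as further readouts. Per the submitters' processing notes, Bowtie2 2.2.6, SAMtools and MACS2 2.1.0.20150731 were used, with builds hg19 and GRCh37. The sources used here do not give the input behind each list or any pooling. As the authors deposited them, peak heights are a linear ratio (fold over local background at the summit), and p-value and q-value are written as −log10. The deposited score column, close to 10 times the −log10 q, was not used.

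Overlaps, deciles (ties kept in list order) and intervals were computed with Python 3.11.15, numpy 2.4.6, pandas 2.3.3 and scipy 1.17.1, and figures with matplotlib 3.10.9. The code was tested on simulated data beside bedtools 2.31.1. Intervals are exact Clopper-Pearson for shares, exact Poisson for observed over expected, and normal for mean differences over deciles (at least 10 peaks a side). Depth per sample is unknown. Alternatives were a stricter threshold (a minimum fold of 5 with a minimum −log10 q of 10), 50% of both peaks, summits within 100 bp, gaps up to 1000 bp, and equal list lengths. Named peaks are the 10 strongest parental peaks in neither clone, the 5 strongest in both, the 5 weakest with a strongest-decile peak in both clones, the 10 strongest absent peaks of each clone, the 10 regions of best mean rank absent from the parental list and held by both clones, and the longest runs (the rule asked for 3, and 4 runs tied at 11 peaks, so all 5 are given). The first parental peaks missing from a single clone, and regions beyond the first 10, were named after their values were seen. The members and lists were chosen with earlier results of these data known. Positions are 1-based hg19. Peaks carry no gene names or sequences, because an hg19 genome and annotation were not used here.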

Additional observations from a re-analysis of the deposited data

How the results depend on the processing

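No paired analysis was possible because every condition was sampled 1 time. Of the values recomputed under the alternatives listed with the methods, 37 left their 95% interval (or 1.5 times the count), 1 reversed and 22 did neither. The lists then held, after the stricter threshold, 2013 parental, 786 WT clone and 1057 delta-Repeat clone peaks. The stricter threshold gave 28.3% of parental peaks in both clones and 47.2% in neither, a width decile difference of 61.9 points, 4.51 points for wider peaks at equal fold, 6.49% of WT clone peaks absent and a CTCF difference of 6.63 points. With 50% of both peaks, 13.2% were in both and 65.2% in neither, the fold and width decile differences were 68.8 and 37.6 points, that of wider peaks reversed to -2.16 points, absent shares were 36.2% (WT clone) and 38.1% (delta-Repeat clone), and 129 absent regions were in both clones. With summits within 100 bp these values were 13.6%, 66.0%, 64.0, 42.4 and 1.46 points, 32.9%, 41.3% and 125, with a CTCF difference of 5.19 points. With gaps up to 1000 bp, 25.4% were in both and 50.5% in neither, the fold decile difference was 90.2 points, 11.3% of delta-Repeat clone peaks were absent and the CTCF difference was 8.58 points. With equal list lengths, in the order used for 50% of both peaks, values were 56.0%, 16.7%, 80.1, 69.6 and 12.6 points, 27.7%, 29.2% and 116, with an RKO difference of 13.7 and a CTCF difference of 4.35 points. Ranking parental peaks by −log10 q, chosen after seeing the data, gave 6.07 points for wider peaks at equal fold, and 5 other values stayed within their interval, although the interval of chromosome 1 for peaks in neither clone (1.008 to 1.253) then excluded 1. Stricter overlap and shorter lists remove matches by construction, and for the other changes the cause was not tested. What the lists lack cannot be weighed against depth, which is unknown.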
